A study of Arabidopsis thaliana with 12 samples.

Results

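The comparison was between the replicate 2 and the replicate 1 arrays of Arabidopsis thaliana seedlings, taken within each group as 1 paired difference. The members were the 8 arrays of the lines QK and Ws, out of 12 arrays in the series, chosen by line and replicate number alone. They form 4 pairs: QK heat, QK control, Ws heat and Ws control, and values below are given in this order of pairs. All seedlings were 7 days old and had grown at 22 °C on plates of 0.5x MS medium with 1% sucrose. Heat groups then spent 1 h at 37 °C, and control groups did not. Ws is a wild-type accession. QK is, by published accounts, a mutant in which 4 heat shock factors of class A1 were knocked out together, combining alleles of Col-0 and Ws origin, and those factors are not analysed here. Each array holds RNA of whole seedlings, so that fewer cells of a type and less RNA per cell cannot be told apart. The labels call the replicates biological and do not say that samples of the same number were grown or harvested together. A round below means the arrays that share a replicate number, and within this comparison sowing, growth, hour of harvest, RNA extraction, labelling and hybridisation of a round cannot be told apart. The 4 arrays of Col-0, the other wild-type accession, served as a check, as the mean of the control and the heat array within each replicate number.

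Seedling RNA depends on several inner and outer cues that need not be equal between rounds. The circadian clock sets a daily rhythm on many transcripts, with GI (GIGANTEA) among its evening components. Light acts through transcription factors such as HYH, the homolog of HY5, and sets flavonoid synthesis in young leaves. Carbon status governs the breakdown of starch in the chloroplast and of branched-chain amino acids in the mitochondrion. The plastid genome encodes part of the photosynthetic complexes, the ATP synthase, an RNA polymerase and part of the plastid ribosome, while most chloroplast proteins are encoded in the nucleus.

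The deposited values were signal intensities of 18465 probe sets, with array medians of 75.6 to 87.3. Differences are given on the scale log2(signal + 16), which understates the difference of a probe set with a low signal. The 13631 probe sets above the 35th percentile of their array in at least 2 arrays were tested with limma, with a mean for each of the 4 groups and a replicate term. A probe set was called at a Benjamini-Hochberg adjusted p under 0.05 and at least 2-fold. With 1 array per group and round, the number of arrays limits the precision, and the test weighs the mean difference against its spread over 4 pairs from the same 2 rounds. It does not show what further rounds would give. In Col-0 the replicate 2 arrays stood against their treatment labels. Across tested probe sets the array labelled Col-0 heat replicate 2 correlated at 0.968 with Ws control replicate 2 and at 0.855 with Ws heat replicate 2. The array labelled Col-0 control replicate 2 correlated at 0.969 with Ws heat replicate 2 and at 0.866 with Ws control replicate 2. The mean of both Col-0 arrays does not depend on which of them was heated.

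Replicate 2 differed from replicate 1 in many probe sets, in about equal numbers in each direction. Of the 13631 tested probe sets, 339 were higher in replicate 2 (2.49%) and 334 were lower (2.45%), which makes 673 called in all (4.94%). An adjusted p under 0.05 without a minimum fold was reached by 3525 probe sets. All 4 pairs had the same sign in 668 of the 673 called probe sets, and in 6522 of the 13631 tested ones. The call itself rests on the agreement of these pairs, so the first count is no separate support. The replicate 2 and the replicate 1 arrays did not overlap in 531 called probe sets (78.9%), and in 15.5% of all tested ones. Called probe sets made up 7.17% of the brightest of 3 equal classes of mean signal, 4.64% of the middle class and 2.99% of the dimmest class. Exactly 1 gene was annotated for a part of the probe sets, so that 7228 genes were tested, of which 156 were higher and 163 lower in replicate 2, and 351 called probe sets had no single gene.

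The difference between replicates was close in size to the difference between lines. Replicate number took 23.7% of the variation over the 8 arrays, summed over all tested probe sets, against 33.15% for heat and 26.48% for line. The array of QK control replicate 1 correlated at 0.958 with Ws control replicate 1, another line of the same round, and at 0.919 with QK control replicate 2. In replicate 2 the control arrays of QK and Ws correlated at 0.923, and both control arrays of Ws at 0.921. Heated arrays had the opposite order. Both heat arrays of QK correlated at 0.929 and both of Ws at 0.938, whereas QK heat and Ws heat correlated at 0.878 within replicate 2 and at 0.864 within replicate 1.

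**Figure D1:**
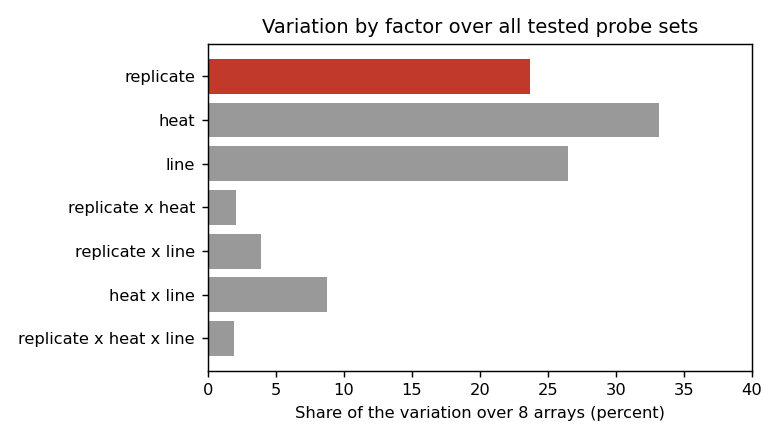
Bars give the share of the variation over the 8 QK and Ws arrays, in percent and summed over all tested probe sets, that each factor and each combination of factors takes. Replicate number takes 23.7%, heat 33.15% and line 26.48%, and each term that combines replicate with another factor takes under 4%.

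Whether heated seedlings or QK seedlings differed between rounds in other genes was asked with interaction terms. The replicate difference of the heat pairs minus that of the control pairs took 2.12% of the variation, and limma called 0 of 13631 probe sets (0%) for it. The smallest adjusted p was 0.687, and 807 probe sets had an unadjusted p under 0.05. The replicate difference of the QK pairs minus that of the Ws pairs took 3.94% of the variation, and limma again called 0 probe sets, with a smallest adjusted p of 0.0922 and 1653 at an unadjusted p under 0.05. This count of 0 depended on the scaling, since 68 probe sets were called higher and 42 lower in QK after centring each array on its median. Each interaction had 1 residual degree of freedom, and a term that misses the threshold does not show equal differences. Across the tested probe sets the replicate differences of both QK pairs correlated at 0.688 and those of both Ws pairs at 0.807, and between a QK and a Ws pair the correlation was 0.587 to 0.679. These correlations are descriptions over probe sets of arrays that share their round.

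Col-0 gave the same direction for nearly all called probe sets. The sign in Col-0 was that of the QK and Ws pairs in 670 of 673 called probe sets (99.6%), against 80% of all tested ones. All 339 probe sets called higher were also higher in replicate 2 of Col-0, with a median log2 difference of 1.61 in Col-0 and 1.37 in QK and Ws. Of the 334 called lower, 331 were lower in Col-0 too, with medians of -1.52 in Col-0 and -1.43 in QK and Ws. In 548 called probe sets the Col-0 difference was itself at least 2-fold in the same direction. The Col-0 arrays come from the same 2 rounds, so they add another line and no further round. For the difference in Col-0 minus that in QK and Ws limma called 0 probe sets, with a smallest adjusted p of 0.0664 and 1029 at an unadjusted p under 0.05. With no filter on dim probe sets 4 were called higher and 5 lower for this term.

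**Figure D2:**
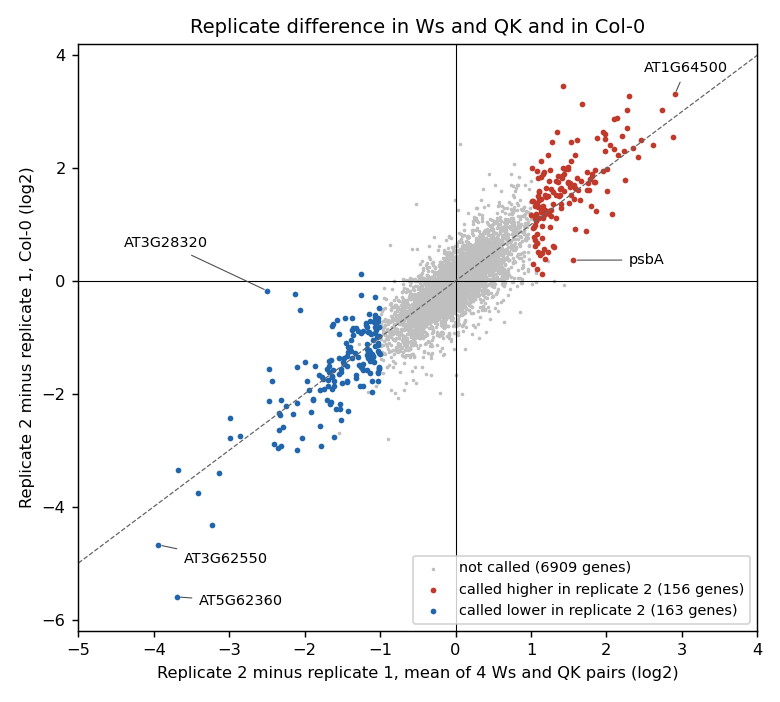
Each point is 1 of the 7228 tested genes, with the replicate 2 minus replicate 1 difference in Col-0 (log2, vertical axis) against the mean of the 4 QK and Ws pairs (log2, horizontal axis), and the dashed line marks equal differences. Genes called higher in replicate 2 (red, 156) lie above 0 in Col-0, and genes called lower (blue, 163) lie below 0 with the exception of AT1G63540.

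Few called probe sets departed from this direction in Col-0. AT1G63540 was the only named gene called with the opposite sign there, at a log2 difference of 0.13 in Col-0 and -1.25 in QK and Ws, and it was no longer called without the QK heat pair or without the Ws heat pair. AT3G28320 had signals of 244.5, 273.6, 122.5 and 167.5 in replicate 2 and 893.3, 2908.6, 669.8 and 1041.2 in replicate 1, and its log2 difference was -0.18 in Col-0 and -2.49 in QK and Ws. psbA, the plastid gene of the D1 protein of photosystem II, had a log2 difference of 0.37 in Col-0 and 1.56 in QK and Ws. AT3G28320 and psbA thus kept their sign in Col-0, with a smaller difference there. Other genes had a larger one in Col-0, such as XTH32 with 2.47, against 1.27 in QK and Ws. The difference in Col-0 minus that in QK and Ws was not called for psbA or XTH32 (limma adjusted p = 0.331 and 0.362).

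The genes lower in replicate 2 included those with the largest differences of any tested gene. AT3G62550 had signals of 108.4, 83.5, 426.8 and 417.9 in the 4 replicate 2 arrays, against 2152.1, 3398.4, 3944.9 and 4464 in the 4 replicate 1 arrays. AT5G62360 had signals of 13.8, 18.3, 14.4 and 15 in replicate 2, against 255.2, 415.9, 376.3 and 564.4 in replicate 1. For neither gene did the arrays overlap, and AT5G62360 was far below the array medians throughout replicate 2. The log2 differences were -3.94 (SE 0.31, limma adjusted p = 0.000724) for AT3G62550 and -3.69 (SE 0.17, limma adjusted p = 0.000149) for AT5G62360. Both were lower in Col-0 as well, by log2 differences of -4.68 and -5.60.

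COR27, GI and CCL were lower in replicate 2. COR27, cold regulated gene 27, had signals of 9.9, 7.7, 8.4 and 8.3 in replicate 2, against 398.5, 388.3, 335.3 and 152.7 in replicate 1. Its signal was under 10 in every replicate 2 array and above the array medians in every replicate 1 array, with a log2 difference of -3.68 (SE 0.22, limma adjusted p = 0.00031). GI was the single tested gene of the list of evening-phased clock genes. Its signals were 103, 75, 89.4 and 108.7 in replicate 2, against 289.1, 420.4, 369.7 and 552.1 in replicate 1. The lowest replicate 1 array stood above the highest replicate 2 array by more than 2-fold, and the log2 difference was -1.92 (SE 0.16, limma adjusted p = 0.000871), with -2.32 in Col-0. CCL, annotated as CCR-like, had signals of 665.6, 509.5, 1362.9 and 1201 in replicate 2 and 5502.1, 7612.6, 5835.4 and 6649.6 in replicate 1, a log2 difference of -2.85. Day-phased clock genes could not be described, since 0 of 14 on that list were tested.

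**Figure D3:**
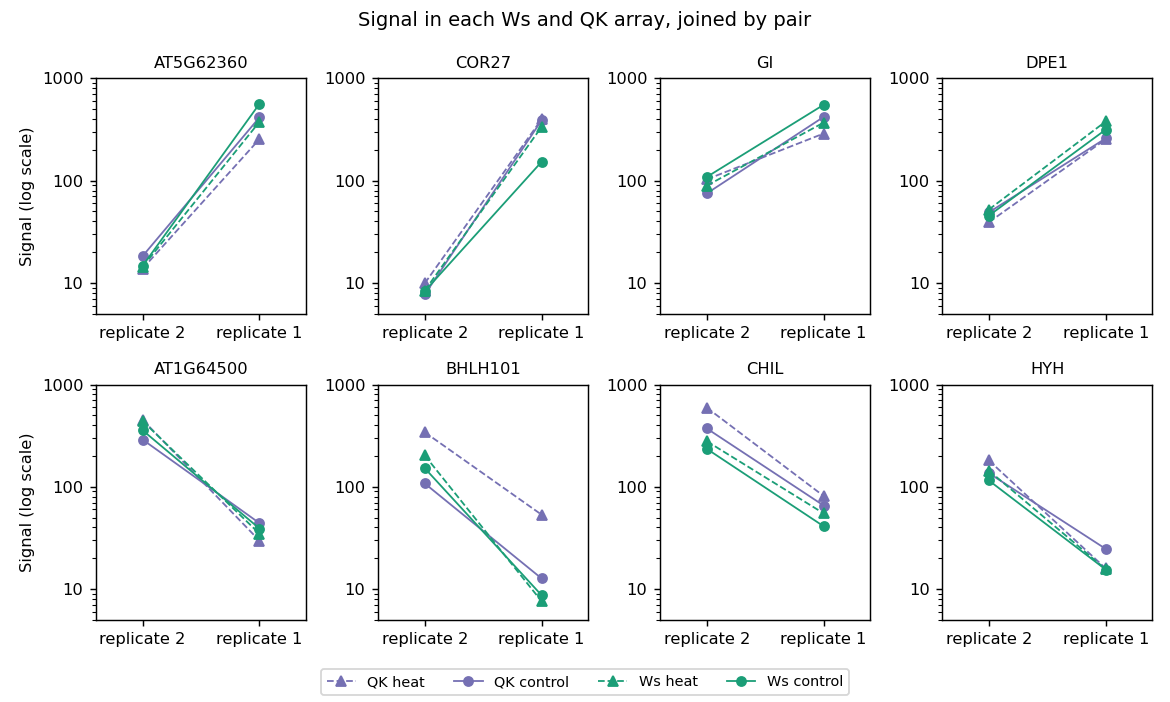
Signals (log scale) of 8 genes in the 8 QK and Ws arrays, with replicate 2 on the left and replicate 1 on the right of each panel and a line for each pair. In every panel the 4 replicate 2 arrays lie on one side of the 4 replicate 1 arrays, as with GI between 75 and 108.7 in replicate 2 and between 289.1 and 552.1 in replicate 1.

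The steadiest large difference belonged to AT4G32340. Its signals were 84.7, 70.5, 147.5 and 124.4 in replicate 2, against 1017.2, 897.1, 1891 and 1444.1 in replicate 1. Replicate 1 was thus about an order of magnitude brighter in each pair, and the 4 log2 differences lay between -3.54 and -3.36, with a mean of -3.42 (SE 0.086, limma adjusted p = 3.47e-05), the smallest adjusted p of the comparison. Among the other loci with the largest drops, the log2 difference was -3.23 for AT1G56300, -3.14 for AT4G16146, -3.00 for AT1G70820 and -2.99 for AT4G33980. AT1G07050 and AT2G15960 had -2.43 and -2.36. BGLU44, a beta-glucosidase, had -2.40, and OSM34, osmotin 34, a protein of the thaumatin family, had -2.48. In OSM34 the heated seedlings were dimmer in both rounds, with signals of 116.3, 164.4, 76.4 and 198.5 in replicate 2 and 463.2, 898, 684.6 and 1469.9 in replicate 1, and the replicate difference was found at both temperatures.

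THIC, which makes the pyrimidine part of thiamin in the chloroplast and whose transcript is known to follow a daily rhythm, was lower in replicate 2. Its signals were 286.2, 246.2, 411.4 and 359.3 in replicate 2, against 1251.1, 1655.1, 2374.1 and 2409.3 in replicate 1, and its log2 difference was -2.48 (SE 0.13, limma adjusted p = 0.00019).

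Both tested genes of starch breakdown were lower in replicate 2. DPE1, the disproportionating enzyme that acts on maltotriose inside the chloroplast, had signals of 39.2, 49, 52.2 and 45.5 in replicate 2, against 254.1, 259.4, 379.5 and 315.9 in replicate 1. PWD, the phosphoglucan water dikinase that phosphorylates starch granules before they are broken down, had signals of 136.8, 148.5, 117.2 and 112.8 in replicate 2, against 460.4, 530.6, 819.5 and 646.7 in replicate 1. Neither gene had overlapping arrays, and the log2 differences were -2.34 (SE 0.10, limma adjusted p = 0.000142) and -2.10 (SE 0.19, limma adjusted p = 0.00106), with -2.65 and -2.17 in Col-0. Of 2 tested genes of starch synthesis 0 were called. SBE2.2, a starch branching enzyme, had a log2 difference of 0.074, and AT5G39790 had -0.44. The starch lists hold few measured genes, 2 of 17 for breakdown and 2 of 15 for synthesis. They were drawn up after the data had been seen, and 2.45% of all tested probe sets were called lower.

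Several genes that break down branched-chain amino acids were lower in replicate 2. Of 10 tested members 4 were called lower and 0 higher, against 2.45% and 2.49% of all tested probe sets. The median log2 difference of the list was -0.73, against -0.01 over all tested probe sets. The list was drawn up after the data had been seen, so its count is no independent test. IVD, the isovaleryl-CoA dehydrogenase of leucine breakdown, had signals of 258.2, 268.4, 205.9 and 204.2 in replicate 2, against 944.8, 1018.6, 634.6 and 614.5 in replicate 1, and its log2 difference was -1.69 (SE 0.10, limma adjusted p = 0.00031). MCCA and MCCB, the subunits of the 3-methylcrotonyl-CoA carboxylase that follows IVD in the same pathway, had log2 differences of -1.67 (SE 0.24, limma adjusted p = 0.00484) and -1.43 (SE 0.18, limma adjusted p = 0.00337). For these genes the replicate 1 arrays of QK were brighter than those of Ws, and the MCCA signals were 258.3, 452.6, 305.7 and 362.9 in replicate 2, against 1591, 1554.6, 765.4 and 800.1 in replicate 1. ALDH6B2, an aldehyde dehydrogenase of valine breakdown, had -1.39. ETFQO and ETFBETA, of the electron transfer chain that takes up electrons from IVD, had -0.74 and -0.66. Their limma adjusted p was 0.0309 and 0.0173, and both were under the 2-fold minimum. ETFALPHA, the partner subunit of ETFBETA, had -0.15 (limma adjusted p = 0.244). AT2G26800 was the single member with a positive difference, at 0.70. The list of sugar starvation and darkness genes had 3 called of 6 tested, and those were again IVD, MCCA and MCCB.

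Several enzymes and regulators of other lists were lower in replicate 2 as single members. Over all tested probe sets 2.45% were called lower. PORB, a light-dependent protochlorophyllide oxidoreductase and the 1 called gene of 8 tested in chlorophyll synthesis, had signals of 712.6, 425.4, 887.8 and 969.9 in replicate 2, against 1766.7, 1205.8, 2195.5 and 2602.4 in replicate 1. The arrays did not overlap, and the 4 log2 differences lay close to their mean of -1.37 (SE 0.081, limma adjusted p = 0.00031). Fes1B, related to the HSP70 partner Fes1A, was the 1 called gene of 12 other heat shock proteins and partners, with signals of 24.1, 16.1, 56.7 and 59.7 in replicate 2 and 226.3, 232.3, 346 and 187.8 in replicate 1 and a log2 difference of -2.32. PDC2, a pyruvate decarboxylase of fermentation, had a log2 difference of -1.44 (limma adjusted p = 0.0197) and was no longer called without the Ws heat pair (adjusted p = 0.0808) or the QK control pair (adjusted p = 0.0549). AT5G64120, peroxidase 71, had -1.48 (limma adjusted p = 0.0201) and lost its call without the same pairs (adjusted p = 0.0781 and 0.0537). It was the 1 called gene of 6 class III peroxidases, a list with a median log2 difference of -0.57 and 0 called genes without either of these pairs.

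Among the nuclear genes higher in replicate 2, AT1G64500 and AT1G47400 had the largest differences. AT1G64500 had signals of 452.3, 289.5, 439.5 and 357 in replicate 2, against 29.7, 44.1, 34.8 and 39.1 in replicate 1. AT1G47400 had signals of 789, 526.2, 294.9 and 186.3 in replicate 2, against 188.7, 36.9, 16 and 11.3 in replicate 1. The arrays of AT1G64500 stood far apart, whereas the heated QK array of replicate 1 of AT1G47400 was slightly above the lowest replicate 2 array, and the log2 differences were 2.91 (SE 0.17, limma adjusted p = 0.00031) and 2.88 (SE 0.23, limma adjusted p = 0.000772). AT5G48490 followed with 2.46, AT3G56290 with 2.301, AT1G55960 with 2.27, AT5G15950 with 2.24 and AT3G21670, also named NPF6.4 of the nitrate and peptide transporter family, with 2.14.

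BHLH101, a transcription factor of the iron deficiency response, was the 1 called of 5 tested genes matched to the iron homeostasis list. It had signals of 341.9, 107.9, 202.7 and 152.2 in replicate 2, against 53.4, 12.7, 7.6 and 8.7 in replicate 1. The groups did not overlap, heated QK seedlings had the highest signal in each round, and the log2 difference was 2.61 (SE 0.18, limma adjusted p = 0.000532). Listed symbols with no match in the reference table are outside this count, and 2.49% of all tested probe sets were called higher.

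All 3 tested genes matched to the flavonoid list were called higher in replicate 2, against 2.49% of all tested probe sets. CHIL, the chalcone isomerase-like protein that aids the first steps of flavonoid synthesis, had signals of 594.4, 372.1, 279.2 and 235.1 in replicate 2, against 81, 65.6, 55 and 41.1 in replicate 1. UGT78D1 and UGT78D2, which attach sugars to flavonols, had signals of 156.9, 127.7, 131.7 and 111.4 and of 361.9, 306.3, 230.2 and 260 in replicate 2, against 39.2, 34, 33.1 and 34.2 and 90.6, 123.5, 71.6 and 84.3 in replicate 1. In none of these genes did the arrays overlap. The log2 differences were 2.27 (SE 0.12, limma adjusted p = 0.00021), 1.53 (SE 0.091, limma adjusted p = 0.00031) and 1.496 (SE 0.12, limma adjusted p = 0.000735), and the values in Col-0 were 3.03, 2.46 and 1.73. The list held 33 matched genes of this pathway, of which 3 had a tested probe set, and listed symbols without a match are not counted. HYH, the 1 tested gene of the early light response list, had signals of 180.9, 135.9, 144 and 115.3 in replicate 2, against 15.9, 24.7, 15.6 and 15.5 in replicate 1. Its log2 difference was 2.23 (SE 0.14, limma adjusted p = 0.000326). Of 28 tested genes matched to the list of family 1 UDP-glycosyltransferases, 3 were called higher and 2 lower. Over all tested probe sets the shares were 2.49% and 2.45%, and the list does not cover the whole family. The third higher gene was UGT74D1 at 1.17, and the lower genes were UGT72E1 at -1.16 and UGT84A3 at -1.07.

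Genes that loosen the cell wall were higher in replicate 2 in part. Of 19 tested expansins and xyloglucan enzymes 4 were called higher and 0 lower, against 2.49% and 2.45% of all tested probe sets, and the list's median log2 difference was 0.49, against -0.01. EXPA8, an expansin, had signals of 794.2, 1285.9, 889.6 and 1921.1 in replicate 2, against 90.5, 380.1, 192.1 and 663.3 in replicate 1. XTH19, a xyloglucan endotransglucosylase, had signals of 593.9, 1542, 494.1 and 1092.9 in replicate 2, against 221.5, 802, 123.4 and 471.7 in replicate 1. In both genes heated seedlings were dimmer than control seedlings within a round, and the groups of arrays were disjoint for EXPA8 alone. The log2 differences were 2.07 (SE 0.23, limma adjusted p = 0.00214), 1.34 (SE 0.16, limma adjusted p = 0.00267) and, for XTH32, 1.27 (SE 0.13, limma adjusted p = 0.0018). The count called higher was 7 without the QK heat pair and 0 without a term for group, and 1 member was called lower without the QK control pair. GH3.17, which joins auxin to glutamate, was the 1 called of 7 auxin response genes, at 1.00 (limma adjusted p = 0.00715), and was under the 2-fold minimum without the Ws control pair or the Ws heat pair.

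The seed maturation list had 1 gene called higher of 9 tested, with positive differences for all 9 and a median of 0.64. Over all tested probe sets 2.49% were called higher, and 6625 of 13631 had a positive difference. In Col-0 7 of the 9 genes had the same sign, which is near the 80% of all tested probe sets. The list median was 0.83 in the QK heat pair, 1.45 in QK control, 0.46 in Ws heat and 0.24 in Ws control. The called gene was LEA4-5, a late embryogenesis abundant protein, with signals of 977.7, 531.9, 38.8 and 34.6 in replicate 2, against 234.8, 120.9, 18.4 and 21.6 in replicate 1. Within each round QK was far brighter than Ws, and the log2 difference was larger in the QK pairs, at 1.986 and 2.001, than in the Ws pairs, between 0.43 and 0.67. The interaction with line was not called for this gene (limma adjusted p = 0.131). The call for the mean difference (limma adjusted p = 0.025) was lost when any pair other than that of Ws control was left out, with adjusted p between 0.0586 and 0.0804.

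Transcripts of the plastid genome were for the most part higher in replicate 2. Of 66 tested plastid genes 39 were called higher and 2 lower, against 2.49% and 2.45% of all tested probe sets, and their median log2 difference was 1.16, against -0.01. In Col-0 the median was 1.28, and 63 of the 66 genes had the same sign there, against 80% of all tested probe sets. Replicate 2 and replicate 1 arrays did not overlap in 42 of the 66 genes (63.6%), against 15.5% of all tested probe sets. The median over these genes was 1.16 in the QK heat pair, 1.07 in the QK control pair, 0.98 in the Ws heat pair and 1.33 in the Ws control pair. Their summed signal per array was 98807.2 to 133662.7 in replicate 2, against 43512.6 to 65619 in replicate 1. The plastid lists were drawn up after the data had been seen, so their count describes these arrays and is no independent test. Plastid genes share polycistronic transcripts and are not independent of each other.

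Most genes of the plastid gene expression machinery were higher. Of 14 tested ribosomal protein genes 12 were called higher, against 2.49% of all tested probe sets, and the median log2 difference was 1.73. rpl33, of the large ribosomal subunit, had signals of 1176.5, 2006.1, 1216.3 and 2138.5 in replicate 2, against 239.1, 372.4, 306.8 and 427.5 in replicate 1. Its lowest replicate 2 array was well above its highest replicate 1 array, and its log2 difference was 2.21 (SE 0.10, limma adjusted p = 0.000152). rps2 and rpl16 both had 2.01. The members not called were rps4, which at 0.996 lay just under the 2-fold minimum, and rpl32, at 0. Of 3 tested subunits of the plastid-encoded RNA polymerase, rpoC1 (2.36) and rpoC2 (1.77) were called higher and rpoA (0.88, limma adjusted p = 0.0069) was under the 2-fold minimum. rpoC1 had signals of 385.3, 552.8, 423.8 and 851.7 in replicate 2, against 60.5, 87.2, 110.5 and 110.8 in replicate 1. clpP, a subunit of the plastid protease, was higher by 2.15 and matK, which takes part in intron splicing, by 1.80.

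The ATP synthase genes were called higher for 5 of 6 members, against 2.49% of all tested probe sets. atpA, the alpha subunit, had signals of 2992.2, 1662.6, 2974.2 and 4459.8 in replicate 2, against 332.6, 313, 568 and 491.3 in replicate 1. This was the largest difference of any plastid gene, at a log2 value of 2.74 (SE 0.17, limma adjusted p = 0.000361), and the arrays did not overlap. atpB, atpF, atpE and atpH had 1.74, 1.53, 1.24 and 1.103. atpI, with a mean signal of 35.7 in replicate 2 and 42.1 in replicate 1, had -0.18 (limma adjusted p = 0.426).

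Some photosystem genes were higher. Over all tested probe sets 2.49% were called higher and 2.45% lower. Of 15 tested genes of photosystem II, 7 were called higher and 1 lower, with a median log2 difference of 0.95. psbH had signals of 1770.5, 1329.6, 1991.7 and 1671 in replicate 2, against 209, 231.4, 514.8 and 318.6 in replicate 1, a log2 difference of 2.42 (SE 0.17, limma adjusted p = 0.000535). psbA had signals of 3630.8, 3391.4, 5156.7 and 5963.6 in replicate 2, against 1040.4, 1371, 1960.1 and 1719.9 in replicate 1, and psbI differed by 1.62. In psbH and psbA the groups did not overlap. Of 7 genes of photosystem I and its assembly 2 were called higher, psaA at 1.26 and the assembly factor ycf4 at 1.98, and psaB at 0.59 was under the 2-fold minimum. psaC had a difference of -0.49 (limma adjusted p = 0.0805). Of 9 genes of the NDH complex, which passes electrons around photosystem I, 2 were higher, ndhA at 1.33 and ndhJ at 1.03, and ndhD had -0.52 (limma adjusted p = 0.03). rbcL, the large subunit of Rubisco, had signals of 228.3, 256.3, 369.2 and 538 in replicate 2, against 124.9, 105.9, 245.3 and 138.7 in replicate 1, with an overlap between groups. Its log2 difference was 1.09 (limma adjusted p = 0.0134), and it was under the 2-fold minimum without the Ws control pair.

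**Figure D4:**
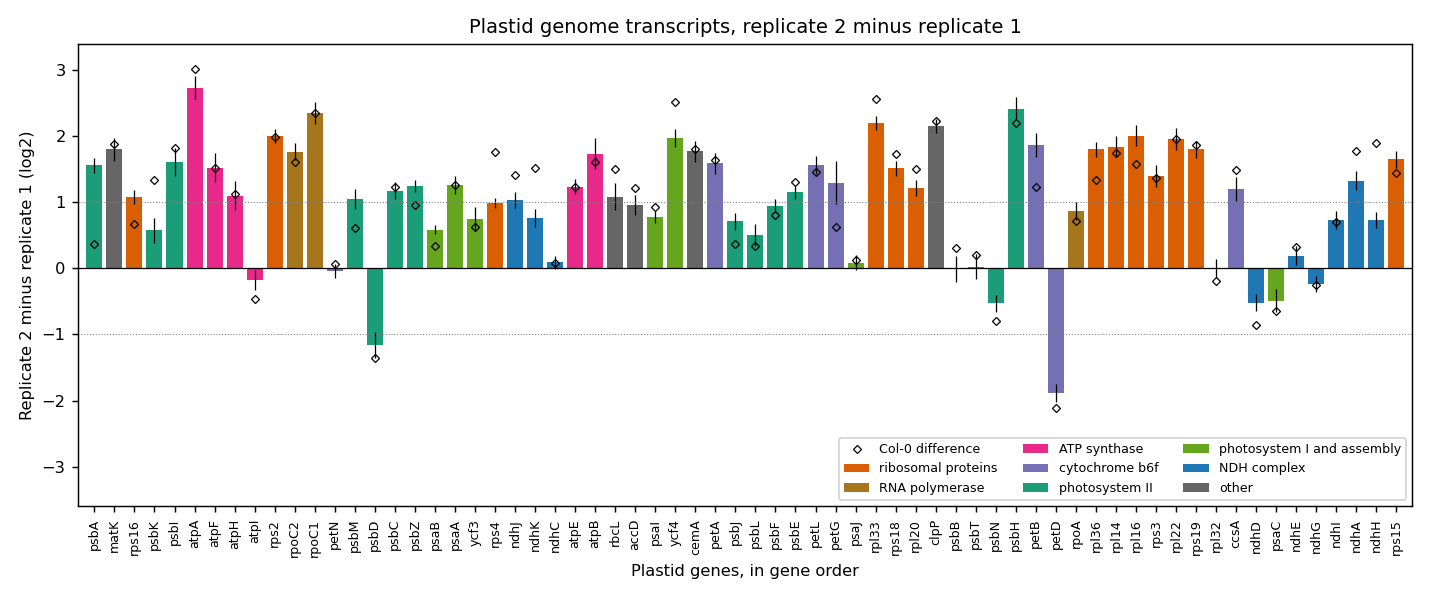
Bars give the replicate 2 minus replicate 1 difference (log2, mean of the 4 QK and Ws pairs, error bars of 1 limma standard error) of the 66 tested plastid genes in gene order, coloured by complex. Open diamonds give the Col-0 difference and dotted lines mark 2-fold. Bars of 39 called genes reach above the upper line, and psbD and petD reach below the lower one beside positive bars of psbC and petB.

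The 2 plastid genes called lower, petD and psbD, each lay beside genes with positive differences. petB and petD, subunits of the cytochrome b6f complex that are adjacent in the plastid genome, had log2 differences of 1.87 (SE 0.18, limma adjusted p = 0.00148) and -1.89 (SE 0.13, limma adjusted p = 0.000516). The petB signals were 7395.4, 6561.5, 5931.9 and 6750.9 in replicate 2, against 1413.2, 1423.3, 2422.5 and 2189.6 in replicate 1. The petD signals were 23.1, 24.4, 47.4 and 31.7 in replicate 2, against 99.9, 117.1, 285.3 and 175.7 in replicate 1. Both genes separated the groups without overlap, in opposite directions, and Col-0 gave 1.24 for petB and -2.11 for petD. psbC and psbD, core proteins of photosystem II whose genes are also adjacent, had 1.18 (limma adjusted p = 0.00217) and -1.16 (limma adjusted p = 0.00865). The psbD signals were 746.9, 760.6, 1535.2 and 2500.6 in replicate 2, against 2206, 2039.4, 3788.8 and 3264.7 in replicate 1. These overlapped. On its other side psbD neighbours psbM, called higher at 1.05, and psbD was no longer called without the Ws heat pair (adjusted p = 0.0537). Levels of different probe sets were not compared, and each gene was read by 1 probe set. The list of cytochrome b6f genes, which also holds ccsA of cytochrome c maturation, had 5 called higher and 1 lower of 7 tested. Over all tested probe sets the shares were 2.49% and 2.45%. Within the cluster that holds psbH, petB and petD, the photosystem II genes psbB, psbT and psbN were not called, at -0.01, 0.02 and -0.53.

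Mitochondrial transcripts and nuclear photosynthesis genes were set beside the plastid values. Of 14 tested mitochondrial genes 0 were called, against 4.94% of all tested probe sets, with a median log2 difference of 0.03, and cox1 and cox2, subunits of cytochrome oxidase, had 0.01 and 0.027. The highest mitochondrial values were 0.86 for ccb382, a cytochrome c maturation gene (limma adjusted p = 0.00507), and 0.56 for orfX (limma adjusted p = 0.0236). Of 11 tested nuclear photosynthesis genes 0 were called, with a median of 0.11. In lists this short a count of 0 is near the share over all probe sets. RCA, Rubisco activase, had 0.25 (limma adjusted p = 0.0229), LHCB4.1, a light-harvesting protein, had 0.03, and PSAE-1 and PSAN of photosystem I had 0.11 and -0.11. LHCB4.2 and LHCB4.3, named here after their values were seen, came closest to the 2-fold minimum, at 0.90 (limma adjusted p = 0.00119) and 0.95 (limma adjusted p = 0.0027). A test of the difference between these lists and the plastid list was not made.

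**Figure D5:**
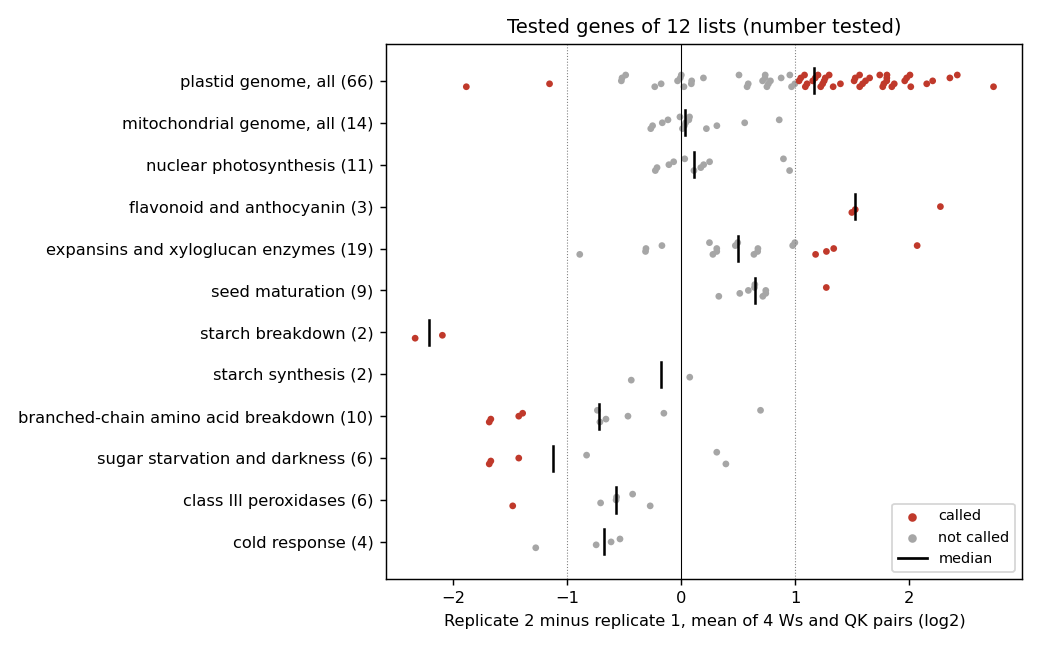
Each point is a tested gene of 1 of 12 lists, placed by its replicate 2 minus replicate 1 difference (log2, mean of 4 QK and Ws pairs), with called genes in red, others in grey, list medians as black bars and dotted lines at 2-fold. The plastid list (median 1.16) lies to the right of the mitochondrial (0.03) and nuclear photosynthesis lists (0.11), and both starch breakdown genes lie on the far left.

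No cell type marker passed both thresholds. Of 11 marker lists 7 had a tested gene and 0 had a called one, against 4.94% of all tested probe sets. In lists this short a count of 0 is near that share. The mesophyll markers RCA and HPR had log2 differences of 0.25 and 0.32, and their summed signal was 16374.6 to 20543.7 in replicate 2 and 13651.3 to 17192.1 in replicate 1. The 4 tested root markers had a median of -0.30, with -0.17 for PYK10, the beta-glucosidase of root and hypocotyl ER bodies, and -0.44 for JAL34, a lectin of the same bodies, and a summed signal of 2863.2 to 12009.9 in replicate 2 and 3980.7 to 9495.2 in replicate 1. Another member, JAL33, named here after its value was seen, had 1.43 (limma adjusted p = 0.227), and AT5G66390 had -0.57 (limma adjusted p = 0.00922). The root hair markers EXPA7 and EXPA18 had 0.28 and 0.50, and the guard cell markers SPCH and FMA had 0.28 and 0.068. The lists for root cap, epidermis, seed and embryo, and pollen and flower had no tested gene. The part of cell composition in the differences above was not tested.

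Of 36 lists of pathways 34 had a tested gene and 13 had a called one. Lists with 0 called genes included the jasmonate response (8 tested, median -0.05), the touch and early stress regulators (12 tested, median -0.02), the cold response (4 tested, median -0.68), oxidative stress and detoxification (11 tested, median 0.21), cell cycle and histones (10 tested, median 0.06) and cytochrome P450 enzymes (9 tested, median -0.09). Since 4.94% of all tested probe sets were called, a count of 0 is near that share in lists this short. COR47 and LTI30, dehydrins of the cold response, had log2 differences of -0.54 (limma adjusted p = 0.0426) and -0.62 (limma adjusted p = 0.286). The cold response list had 1 called gene without the Ws heat pair. In the nuclear photosynthesis list, too, leaving out that pair gave 1 called gene.

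Some called differences were nearly equal in all 4 pairs. GR1, a glutathione-disulfide reductase, was higher by 1.07 with an SD of 0.037 over the 4 pairs, and AT1G06000 by 1.61 with an SD of 0.093. AT3G03770 and AT3G57010 were higher by 1.25 and 1.15. WLIM1, of the LIM protein family, had -1.33 with an SD of 0.060, AT4G33670 had -1.54, AT1G02300 had -1.54 and AT5G14550 had -1.16. In Col-0 the values were 1.07 for GR1, 2.501 for AT1G06000 and -1.73 for WLIM1.

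A replicate term also changed how many probe sets passed the test for heat. With the term limma called 272 probe sets higher (2%) and 451 lower (3.31%) in heated QK seedlings than in QK control seedlings, 5.3% in all. It called 549 higher (4.03%) and 569 lower (4.17%) in heated Ws seedlings than in Ws control seedlings, 8.2% in all. Without it the counts were 160 and 185 in QK and 471 and 280 in Ws.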

How the data were processed

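Signal intensities of 18465 probe sets on 12 Affymetrix arrays were deposited by the authors as a processed table on a linear scale. The software was GCOS 1.4 per the submitters' processing notes, and the build, scaling target and summary algorithm are not given in the sources used here. Control probe sets for RNA quality numbered 0 in the table used, so RNA quality was not read. Arrays were grouped by line, treatment and replicate number from the labels.

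From these intensities log2(signal + 16) was computed with no further normalization, and probe sets above the 35th percentile of their own array in at least 2 of the 12 arrays were kept (13631). limma 3.58.1 in R 4.3.3 fitted group and replicate over the 8 QK and Ws arrays with a variance trend, which leaves 3 residual degrees of freedom, or 1 with both interactions. The Benjamini-Hochberg adjustment covered all tested probe sets. An exact sign-flip test over 4 pairs cannot go below a two-sided p of 0.125 and was not used. The code was tested on simulated data.

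Of the probe sets 10396 had exactly 1 gene in the platform annotation, 398 several and 7671 none, and 10340 matched the reference table of assembly TAIR10.1. Where a gene had several probe sets, the one with the highest mean signal stood for it. The text names the 15 highest and 15 lowest called genes with 4 pairs of the same sign, up to 3 called members of each list in each direction or else its 2 brightest, called interaction genes, genes opposite in Col-0 and the 5 steadiest in each direction. It also names members of the added lists and some uncalled members, chosen after their values were seen. The comparison, its members and the lists were chosen with earlier results of these data known, and the lists for plastid, mitochondrion, starch and branched-chain amino acids were added after the values were seen. Plastid and mitochondrial genes were matched by chromosome or symbol, because locus prefixes matched none. Members of the other lists were matched by symbol, locus or unique synonym, and members without such a match are missing from the counts. The symbols CHI, FMO and FDH matched other genes and were removed. Alternatives covered scaling, pseudocount, filter, variance trend, minimum fold, terms of the fit and pairs left out. Promoter motifs were not searched, since no sequences were used here.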

Additional observations from a re-analysis of the deposited data

Results flagged for a closer look

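In 7 of 192 named genes (3.65%) the replicate 2 minus replicate 1 difference of 1 pair lay far from the other 3 by Dixon's test, which chance does in about 1 in 20 groups. The outlying pair of AT1G56300 had a log2 difference of -3.914 and that of AT3G56290 had 1.456. ATHSP22.0, a small heat shock protein, had 3.482 in the QK heat pair, against differences between -0.14 and 0.04 in the other pairs. The outlying values were -0.58 for FMA, -0.322 for AT1G77750, -0.345 for AT1G09310 and -0.205 for nad9.

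In 6 genes both QK pairs and both Ws pairs had opposite signs, with at least 1 log2 unit between their means. The QK minus Ws difference was 2.037 for STZ (limma adjusted p = 0.345), 1.877 for ATHSP22.0 (limma adjusted p = 0.447), 1.814 for WRKY53 (limma adjusted p = 0.402), 1.454 for ICL (limma adjusted p = 0.257), 1.392 for GRX480 (limma adjusted p = 0.404) and 1.253 for OPCL1 (limma adjusted p = 0.146). None of these 6 passed the interaction test.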

How the results depend on the processing

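Of 96 named called genes 0 changed sign under the alternatives run, and the median over all tested probe sets, -0.011, was 0.013 after centring on the 75th percentile. Of 339 higher and 334 lower probe sets in replicate 2, a pseudocount of 64 left counts of 195 and 215, a minimum of 4-fold 52 and 60, no minimum fold 1663 and 1862, and no group term 217 higher. Leaving out 1 pair gave 308 to 354 higher and 294 to 370 lower. For Col-0 minus QK and Ws, 1 was called higher with quantile normalization and 1 with no variance trend, 2 higher and 3 lower with a pseudocount of 64, and 4 and 5 with no filter, and leaving out pairs gave 0 to 0. For QK minus Ws, centring on the median gave 68 and 42. The Col-0 sign share was 97.7% to 100% with a pair left out, lowest without the QK heat pair.

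Heat calls in QK were 215 lower with a pseudocount of 64, 680 higher and 1366 lower with no minimum fold, and 108 and 21 at 4-fold. In Ws they were 266 lower, 1096 and 1878, and 256 and 32. Without a single array, or without a pair of the other line, QK had 187 to 308 higher and 253 to 470 lower. The count of 253 was that without QK heat replicate 2. Over the same kinds of run Ws had 461 to 563 higher and 308 to 617 lower. In Ws 308 and 376 were lower without Ws heat replicate 1 and Ws heat replicate 2. The runs without a single array were chosen after seeing the data, and those without a pair were planned.

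With no replicate block, heat called 160 higher and 185 lower in QK and 280 lower in Ws. The replicate comparison itself was paired by group, and its counts without that pairing are those with no group term.

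The plastid count called higher was 7 to 50 over 19 settings, lowest at 4-fold, with a median log2 difference of 1.02 to 1.2. Of 96 named called genes 84 were called without each pair in turn. The exceptions were AT1G63540, AT5G64120, GH3.17, LEA4-5, PDC2, UGT84A3, atpH, ndhJ, petG, psbD, psbM and rbcL. Leaving out a pair was not run for the interaction terms, which then have 0 residual degrees of freedom, for the shares of variation, or for the heat contrast of a line whose own pair is left out. Causes of these changes were not tested. Few arrays and no detection calls limit what dim probe sets show.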
